A study of Homo sapiens with 49 samples.

Results

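CAPS (calcyphosine) and 7 further genes of ciliated epithelial cells, namely CAPSL, FOXJ1, RFX2, RFX3, SPAG6, TEKT2 and DNAI1, were followed in Ishikawa cells, a line from a human endometrial adenocarcinoma. Every probe set annotated to 1 of these 8 gene symbols was taken, which gave 17 probe sets among the 54715 on the array, and 8 of 19774 genes. The cells were exposed for 72 h to ethinyl estradiol (EE), a synthetic estrogen used in contraceptive pills, at 0.1, 0.3, 1, 3, 10, 100 or 1000 pM, or to the ethanol vehicle alone. All groups had ethanol in a phenol red-free medium that was partly renewed each day, and each group had 6 arrays except 0.3 pM with 7. Since no label ties a replicate to a culture of its own, the p-values below reflect the spread among these samples alone, and that spread may be technical.

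Motile cilia are built on an axoneme of microtubules with attached dynein arms, and in multiciliated epithelia, including that of the endometrium, their genes are switched on as a set. FOXJ1 and RFX factors (RFX2, RFX3) are transcription factors at the head of that set, and DNAI1 (an outer arm dynein intermediate chain), TEKT2 (a tektin inside the doublet microtubules) and SPAG6 (a protein of the central apparatus) are among its products. CAPS is a calcium-binding protein with EF-hand domains that is abundant in ciliated cells, and CAPSL is a related protein. The question was whether CAPS rose under EE with or without the others.

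CAPS rose at 10, 100 and 1000 pM of EE and RFX3 rose at 100 and 1000 pM, while the other 6 genes gave no call at any concentration. At 3 pM 2 of the 3 CAPS probe sets were called higher. Both calls were lost in some fits that left a replicate number out of every group. CAPS was 3.17-fold higher at 1000 pM than in vehicle by its brightest probe set. RFX3 was 1.5-fold higher at 1000 pM by its brighter probe set, a smaller change than that of CAPS (exact permutation, adjusted p = 0.00649). For the dimmer RFX3 probe set the difference from CAPS did not pass (exact permutation, adjusted p = 0.117). FOXJ1 lay near the detection floor in both groups, and CAPSL, RFX2, SPAG6, TEKT2 and DNAI1 lay under it on all 49 arrays.

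Levels are the deposited log2 expression levels, and a floor of 4 was set, under which a probe set was treated as not detected. A probe set entered the test if it exceeded the floor on at least 6 arrays, as 22721 did. Of the 17 probe sets 6 entered, 3 of CAPS, 2 of RFX3 and 1 of FOXJ1. A call is an adjusted p under 0.05 in limma (Benjamini-Hochberg over the entering probe sets of a comparison). All comparisons with vehicle share its 6 arrays, and levels were not ranked between genes. Within a gene the mean level was used to pick its brightest probe set.

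Promoters were read from RefSeq (GRCh38.p14, 250 bases before to 50 after a start site), where 5 of the 8 genes had 7 promoters. The 4 below are shown because they belong to both genes that rose and to a pair of axonemal genes that stayed under the floor. Capitals mark GGTCA, 1 arm of the estrogen response element, or GTTGCC, 1 arm of the X-box that RFX factors bind, on either strand.
CAPS, chr19:5914004-5914303 (+ strand): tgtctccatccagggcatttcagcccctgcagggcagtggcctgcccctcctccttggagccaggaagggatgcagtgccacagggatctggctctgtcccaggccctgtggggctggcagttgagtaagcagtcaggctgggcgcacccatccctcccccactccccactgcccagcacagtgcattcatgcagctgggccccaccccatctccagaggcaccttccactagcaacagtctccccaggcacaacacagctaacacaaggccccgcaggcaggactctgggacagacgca
RFX3, chr9:3525952-3526251 (- strand): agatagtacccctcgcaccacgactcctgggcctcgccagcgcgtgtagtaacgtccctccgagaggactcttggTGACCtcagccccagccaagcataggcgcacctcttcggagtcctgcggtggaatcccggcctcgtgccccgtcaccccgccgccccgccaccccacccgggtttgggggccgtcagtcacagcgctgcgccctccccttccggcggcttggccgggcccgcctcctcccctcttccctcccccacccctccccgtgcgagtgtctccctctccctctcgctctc
SPAG6, chr10:22345246-22345545 (+ strand): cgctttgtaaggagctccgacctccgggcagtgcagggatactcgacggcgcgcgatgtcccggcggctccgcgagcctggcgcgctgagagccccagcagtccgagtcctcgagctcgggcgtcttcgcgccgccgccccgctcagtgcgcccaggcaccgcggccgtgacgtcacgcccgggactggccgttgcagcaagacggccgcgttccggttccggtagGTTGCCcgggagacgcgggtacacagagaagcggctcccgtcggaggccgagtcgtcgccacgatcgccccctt
DNAI1, chr9:34458555-34458854 (+ strand): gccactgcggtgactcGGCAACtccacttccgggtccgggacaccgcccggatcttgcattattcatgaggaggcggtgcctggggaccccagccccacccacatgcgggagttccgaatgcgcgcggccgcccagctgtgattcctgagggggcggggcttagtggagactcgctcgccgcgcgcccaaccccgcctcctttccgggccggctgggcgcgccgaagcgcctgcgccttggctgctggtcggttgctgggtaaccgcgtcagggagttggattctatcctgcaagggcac

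The search covered the full estrogen response element (GGTCA, any 3 bases, then TGACC, in 0.057% of 35116 promoters), GGTCA (in 37.4%, and contained in the full element), GTTGCC (in 12.2%) and TGTTTAC (a forkhead motif, in 3.42%), on both strands. The CAPS promoter held no match to any of them. The RFX3 promoter shown held GGTCA on its minus strand, 175 bases before the start site, and its other promoter held no match. SPAG6 held GTTGCC 24 bases before the start site, DNAI1 held it on the minus strand 234 bases before, and both overlapping CAPSL promoters shared 1 such match. These matches are descriptions of the letters in these windows only.

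Across the members, calls began at 3 pM. At 0.1, 0.3 and 1 pM 0 of the 6 entering probe sets were called, and 0 (0%) of all entering probe sets were called in limma. At 3 pM 2 were called, both of CAPS, against 0.0836% of all. At 10 pM 3 were called, all of CAPS, against 0.502% of all (0.339% higher and 0.163% lower). At 100 pM 5 were called, 3 of CAPS and 2 of RFX3, against 6.44% of all (2.78% higher and 3.66% lower). The count at 1000 pM was 5 again, against 4.92% of all (2.14% higher and 2.78% lower). Every one of these calls was higher than vehicle, and 0 members were called lower.

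The brightest CAPS probe set (226424_PM_at) gave the closest series. Its lowest, median and highest array were 8.05, 8.21 and 8.28 at 0.1 pM, and 8.21, 8.25 and 8.47 at 0.3 pM. They were 8.07, 8.40 and 8.55 at 1 pM, and 8.41, 8.74 and 8.93 at 3 pM. They were 8.94, 9.09 and 9.34 at 10 pM, 9.62, 9.83 and 10.00 at 100 pM, and 9.80, 9.95 and 10.14 at 1000 pM, against 8.01, 8.25 and 8.59 in vehicle. The arrays at 10, 100 and 1000 pM all lay above every vehicle array, those at 3 pM overlapped vehicle at their low end, and those at 0.1 to 1 pM lay among the vehicle arrays. At 1000 pM 1.21% of all entering probe sets had every array above every vehicle array, and 2.39% had no overlap in either direction. These shares were not counted at 3, 10 or 100 pM.

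Group means of this probe set were 9.94 ± 0.13 at 1000 pM and 8.28 ± 0.20 in vehicle (SD, n = 6 each). The log2 change with vehicle was −0.08, 0.01 and 0.10 at 0.1, 0.3 and 1 pM, none called. It was 0.42 ± 0.08 (SE) at 3 pM (1.34-fold, limma adjusted p = 0.0165). This call is lost when replicate number 1, 2, 3 or 6 is left out of every group (change 0.35 to 0.45). The change was 0.85 ± 0.08 at 10 pM (1.80-fold, limma adjusted p = 5.74e-10), 1.55 ± 0.08 at 100 pM (2.92-fold) and 1.66 ± 0.08 at 1000 pM (3.17-fold, limma adjusted p = 1.2e-20). In each of these 4 groups 6 of 6 arrays were above the vehicle mean.

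Set in order, the CAPS levels of vehicle, 0.1, 0.3 and 1 pM did not separate beyond their spread, and the order then followed the concentration. The step of 3 pM over 1 pM was 0.32 ± 0.08 and was not called (limma adjusted p = 0.836), although 6 of 6 arrays lay above the 1 pM mean. The step of 10 pM over 3 pM was 0.43 (limma adjusted p = 0.0111), in a comparison that called 0.0572% of all probe sets. The step of 100 pM over 10 pM was 0.70 (limma adjusted p = 1.57e-07), where 0.568% of all were called (0.44% higher and 0.128% lower). The step of 1000 pM over 100 pM was 0.12, with a 95% interval of −0.05 to 0.29, and was not called.

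**Figure D1:**
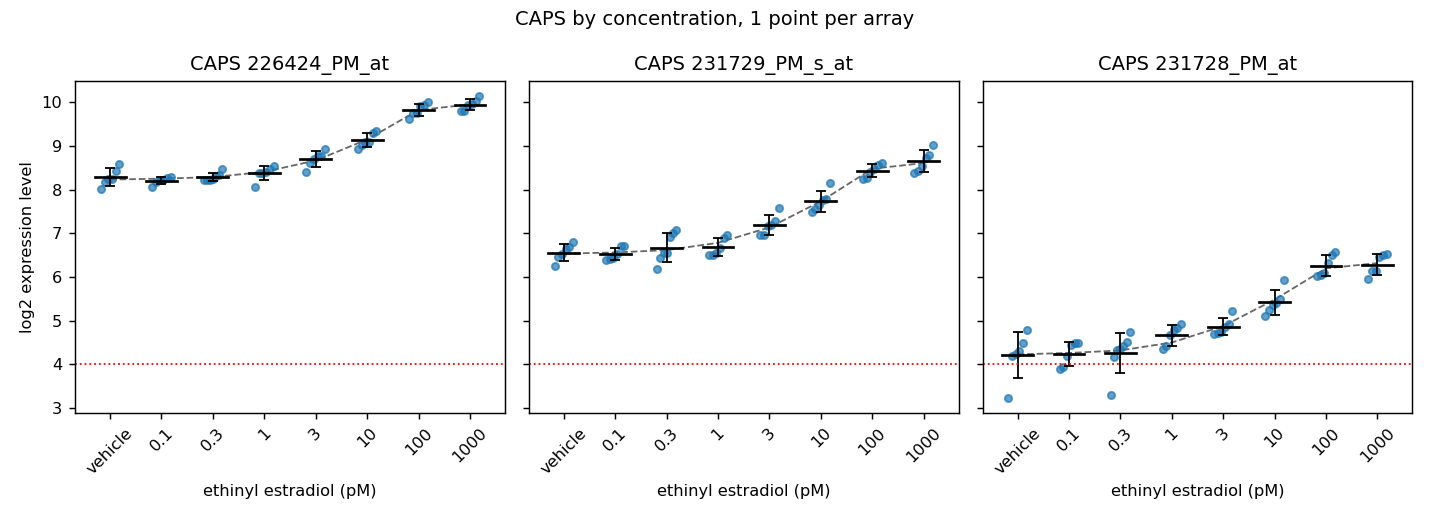
Log2 expression level of the 3 entering CAPS probe sets (vertical axis) in vehicle and at each EE concentration in pM (horizontal axis, groups evenly spaced). Points are arrays, bars are the group mean and SD, the dashed line is the fitted curve and the dotted red line is the floor of 4. All 3 climb between 1 and 100 pM, and at 100 and 1000 pM every array lies above every vehicle array. At 1000 pM this held for 1.21% of all entering probe sets, and the share at 100 pM was not counted.

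Other CAPS probe sets moved the same way. By 231729_PM_s_at the lowest, median and highest array were 8.39, 8.63 and 9.03 at 1000 pM, against 6.24, 6.57 and 6.81 in vehicle. This was a change of 2.09 ± 0.13 (SE), or 4.26-fold (limma adjusted p = 1.41e-17). The groups did not overlap, as in 2.39% of all entering probe sets. At 3 pM every array also lay above every vehicle array, a share not counted over all probe sets at that concentration. The change at 3 pM was already 0.63 ± 0.13 (1.55-fold, limma adjusted p = 0.0167). This call is lost when replicate number 1, 3 or 5 is left out of every group. It is also lost in a fit of the 2 groups alone (change 0.54 to 0.63 and limma adjusted p 0.141 to 0.556 over these). At 10 and 100 pM the change was 1.17 ± 0.13 and 1.87 ± 0.13. Its step of 10 pM over 3 pM, 0.54 ± 0.13, was not called (limma adjusted p = 0.126), with 6 of 6 arrays above the 3 pM mean, and its step of 1000 pM over 100 pM was 0.22 with a 95% interval of −0.04 to 0.48.

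By 231728_PM_at the lowest, median and highest array were 5.95, 6.30 and 6.52 at 1000 pM, against 3.24, 4.27 and 4.79 in vehicle. Again the groups were apart, but the vehicle arrays lay close to the floor and 1 of the 6 under it, so the change of 2.08 ± 0.18 (SE, 4.22-fold, limma adjusted p = 4.56e-12) rests on a dim baseline. At 3 pM its change of 0.65 ± 0.18 was not called (limma adjusted p = 0.695), and at 10 pM it was 1.22 ± 0.18 (2.32-fold, limma adjusted p = 3.23e-05). The step of 100 pM over 10 pM was called in all 3 probe sets, at 0.70 for 226424_PM_at, 0.70 for 231729_PM_s_at and 0.83 for 231728_PM_at. The fourth CAPS probe set, 231710_PM_at, exceeded the floor on 2 arrays and did not enter. Its mean was 3.83 at 1000 pM and 3.29 in vehicle, a change of 0.53 ± 0.16 that was not called in a limma fit without the filter (adjusted p = 0.0903), with 6 of 6 arrays above the vehicle mean.

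Curves of fixed slope 1 placed the midpoint of the log2 change (EC50) of CAPS at 8.91 pM by 226424_PM_at, with a 95% interval of 6.76 to 11.8 pM. By 231729_PM_s_at it was 7.41 pM (5.37 to 10.7 pM) and by 231728_PM_at 6.76 pM (4.07 to 11.2 pM), and these intervals overlap. The same fit gave 7.41 pM (5.89 to 9.33 pM) for PGR, the progesterone receptor, and 12.6 pM (10.0 to 16.2 pM) for GREB1, a cofactor of the estrogen receptor and a widely used estrogen-responsive gene. The CAPS midpoints thus lay in the same range as those of both genes, and their differences were not tested.

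RFX3 is a winged-helix factor that binds X-box motifs in promoters of cilium genes. Its brighter probe set, 230403_PM_at, had a lowest, median and highest array of 6.20, 6.38 and 6.77 at 10 pM and 6.49, 6.70 and 6.96 at 100 pM. They were 6.62, 6.69 and 7.16 at 1000 pM, against 5.85, 6.28 and 6.41 in vehicle. The 100 and 1000 pM arrays lay above every vehicle array, as did 1.21% of all probe sets at 1000 pM (2.39% had no overlap in either direction), and the 10 pM arrays overlapped vehicle. The change was 0.24 at 10 pM (not called), 0.51 ± 0.12 (SE) at 100 pM (1.43-fold, limma adjusted p = 0.00431) and 0.58 ± 0.12 at 1000 pM (1.5-fold, limma adjusted p = 7.49e-04), with 6 of 6 arrays above the vehicle mean at both.

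The second RFX3 probe set, 243868_PM_at, was dimmer and more spread. Its lowest, median and highest array were 4.81, 5.49 and 5.72 at 1000 pM, against 3.05, 4.66 and 5.46 in vehicle. The groups overlapped, and vehicle replicate 5 was the low one. The change was 1.02 ± 0.28 (SE) at 100 pM (2.03-fold, limma adjusted p = 0.0166) and 0.94 ± 0.28 at 1000 pM (1.92-fold, limma adjusted p = 0.0311). The 100 pM call is lost when replicate number 1 or 5 is left out of every group, and in a fit of the 2 groups alone (adjusted p 0.106 to 0.162). The 1000 pM call is lost without vehicle replicate 1 or 5, without any single 1000 pM array of replicates 1, 2, 3 and 5, and in a fit of the 2 groups alone (adjusted p 0.0572 to 0.274 over these). The last 2 RFX3 probe sets, 207234_PM_at and 238810_PM_at, stayed under the floor on all arrays, with a highest array of 3.20 and 2.89. No step between consecutive concentrations was called for RFX3, and the EC50 of its brighter probe set, 11.8 pM, had an interval of 2.95 to 61.7 pM.

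FOXJ1, the forkhead factor required for motile cilia, had 1 probe set, 205906_PM_at, which exceeded the floor on 12 of 49 arrays. The lowest, median and highest array were 3.48, 4.17 and 4.91 at 1000 pM, against 3.45, 4.07 and 5.21 in vehicle. The groups overlapped along their whole length, with 3 of 6 arrays of 1000 pM above the vehicle mean. The change at 1000 pM was −0.03 ± 0.25 (SE), with a 95% interval of −0.53 to 0.48, so a change inside that interval was not excluded in the readings. These readings lay near the floor, where the authors' background model compresses changes. The interval therefore does not bound the change of the FOXJ1 transcript. At the 6 lower concentrations the change lay between −0.62 (1 pM) and −0.16 (3 pM) and was not called. These changes share 1 vehicle mean, in which replicate 5 read 5.21 and the other arrays averaged 3.92. The F test over the 8 groups, which called 4.96% of all probe sets, gave a limma adjusted p of 0.662.

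**Figure D2:**
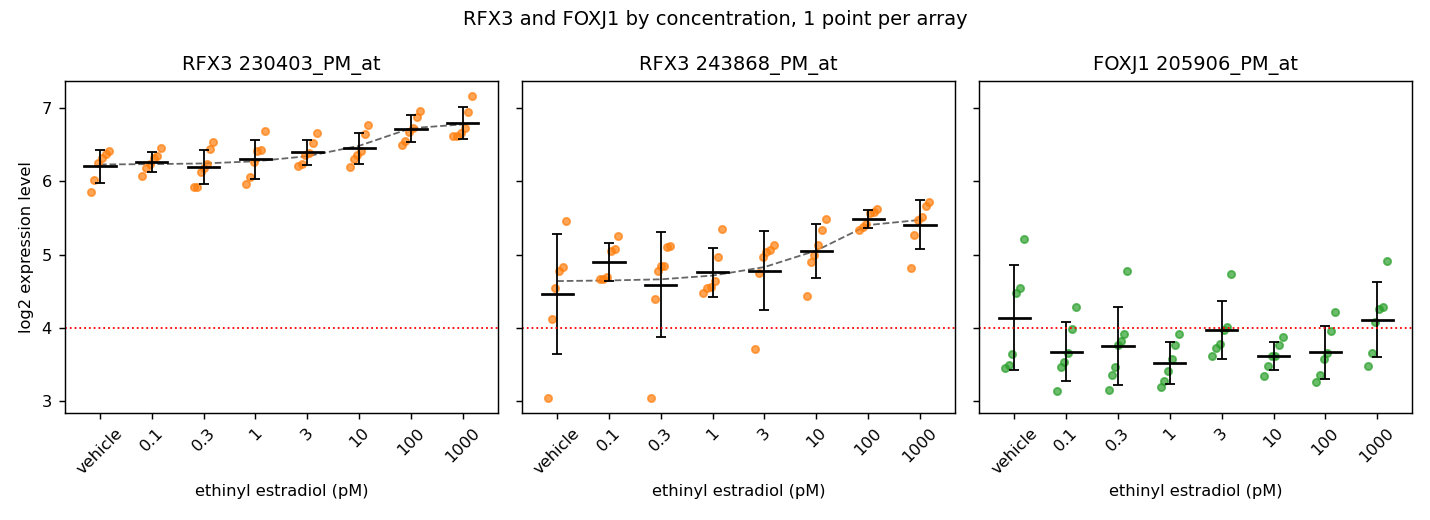
Log2 expression level of both entering RFX3 probe sets and of FOXJ1 (vertical axis) in vehicle and at each EE concentration in pM (horizontal axis). Points are arrays, bars are the group mean and SD, dashed lines are fitted curves for RFX3 and the dotted red line is the floor of 4. RFX3 is highest at 100 and 1000 pM, and FOXJ1 scatters about the floor in every group.

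The remaining 5 genes were not detected on any array. For CAPSL the highest of 49 arrays was 3.67. TEKT2 had a highest array of 3.84. For DNAI1 the highest arrays of its 2 probe sets were 2.93 and 3.12, and for SPAG6 they were 2.79 and 2.76. RFX2, a second X-box factor, had a highest array of 3.03 by one probe set and 2.68 by the other. In a limma fit without the filter, 0 of the 77 comparisons of the 11 dim probe sets with vehicle were called, and their changes lay between −0.16 and 0.53. Changes of such dim probe sets are compressed by the authors' background model, so these values do not bound the change of the transcripts.

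**Figure D3:**
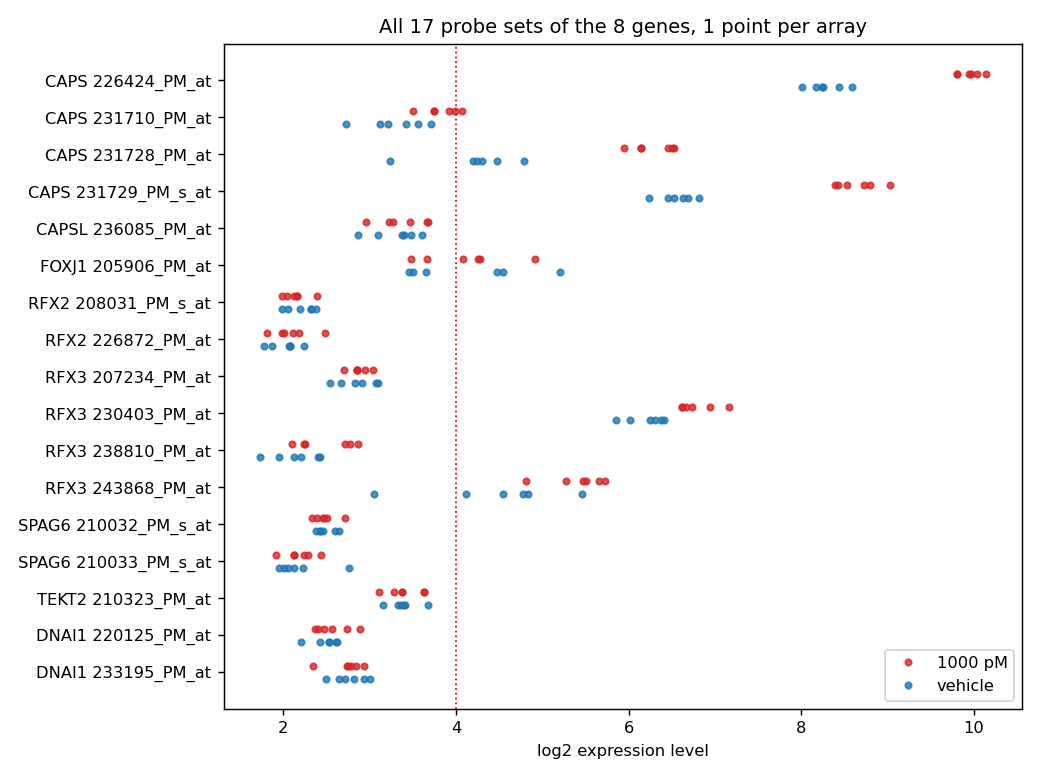
Log2 expression level (horizontal axis) of all 17 probe sets of the 8 genes at 1000 pM (red, upper row of each pair) and in vehicle (blue, lower row), 1 point per array, 6 arrays per group. The dotted line is the floor of 4. The entering 3 CAPS probe sets and RFX3 230403_PM_at show groups that do not overlap, as in 2.39% of all entering probe sets. CAPSL, RFX2, SPAG6, TEKT2 and DNAI1 lie left of the line in both groups.

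Whether CAPS and its fellow members changed unequally was tested on differences within each array (226424_PM_at minus the other probe set), with an exact two-sided permutation test over the 924 arrangements of the 6 arrays at 1000 pM and the 6 of vehicle. The difference of CAPS from FOXJ1 was 1.69 larger at 1000 pM than in vehicle (exact p = 0.00216, the smallest the design allows, and 0.00649 adjusted over 3 pairs). Since FOXJ1 was above the floor on 4 of 6 arrays at 1000 pM and 3 of 6 of vehicle, this value follows the CAPS readings and does not show how the FOXJ1 transcript changed. From RFX3 230403_PM_at it was 1.08 larger (exact p = 0.00433, adjusted 0.00649). From RFX3 243868_PM_at it was 0.72 larger, which did not pass (exact p = 0.117, adjusted 0.117).

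A set of 4 arrays stood apart in control probe sets for RNA integrity. They were 0.3 pM replicate 2, replicate 6 of both 3 and 1000 pM, and vehicle replicate 5, where the 3′ probe set for beta-actin read 2.67 to 4.62 (log2) above the 5′ one, against 0.80 to 2.06 on the other 45 arrays. FOXJ1 read 4.73 to 5.21 on these 4 arrays and 3.14 to 4.54 on the other 45, so its highest 4 readings were these. RFX3 243868_PM_at read 3.05 on the 0.3 pM array, 3.71 on the 3 pM array and 3.05 on the vehicle array of this set, below each of the other 45 arrays, the lowest of which was 4.12. Without the 4 arrays CAPS 226424_PM_at was 1.69 ± 0.08 (SE) higher at 1000 pM than vehicle, RFX3 230403_PM_at 0.55 ± 0.12 (limma adjusted p = 0.00177), RFX3 243868_PM_at 0.78 ± 0.17 (limma adjusted p = 0.00205) and FOXJ1 0.03 ± 0.21 (limma adjusted p = 0.973). The larger change of CAPS than of RFX3 243868_PM_at passed without them, at 0.91 (exact permutation, adjusted p = 0.00794). What part the RNA of these arrays had in the FOXJ1 and RFX3 spread was not tested.

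Over 6 lists of cilium genes, 102 of the 169 genes on the array entered (60.4%, against 56% of all genes). At 1000 pM 4 of the 102 were called higher and 1 lower, 4.9% in all, near the 6.36% of all 11075 entering genes (2.58% higher and 3.77% lower). Their median change was 0.02, against −0.01 over all genes, and these lists include CAPS and RFX3 themselves. Without the 4 arrays that stood apart the counts were 5 higher and 3 lower. The share of all genes called in that fit was not counted, so these counts cannot be set against the 6.36%. As to cell type, all 6 epithelial markers entered (EPCAM, CDH1, KRT8, KRT18, KRT19 and CLDN4) with vehicle means from 7.41 to 11.7 and 0 called (CDH1 at −0.13 was called lower without the 4 arrays, limma adjusted p = 0.0189), while 0 of 4 immune and 0 of 4 endothelial markers entered. Of 7 stromal markers 3 entered. At 1000 pM COL1A2 was called higher at 1.07 ± 0.14 (SE, limma adjusted p = 2.4e-07) and COL1A1 lower at −0.66 ± 0.15 (limma adjusted p = 0.00352). COL3A1, at −0.60 ± 0.19, was not called (limma adjusted p = 0.0574). It was called lower without the 4 arrays (−0.64, limma adjusted p = 0.0248). Being bulk RNA, the values cannot tell fewer cells of a type from less RNA per cell.

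Among regulators of ciliogenesis 9 of 16 genes entered, and RFX3 alone was called (11.1%, against 6.36% of all genes, a share that rests on 1 gene). E2F5, an E2F factor of the multiciliated cell programme, was 0.57 ± 0.23 (SE) higher but not called (limma adjusted p = 0.182). Without the 4 arrays that stood apart it was called, at 0.31 ± 0.08 (limma adjusted p = 0.00845). RFX1, FOXJ1 and MYB had changes of −0.13, −0.03 and −0.03. GMNC, DEUP1, FOXN4 and TP73, which act early in the multiciliated fate, had no probe set above the filter.

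Of 53 structural genes of the motile axoneme on the array 17 entered and 0 were called in limma, where 6.36% of all genes were. In 3 of 10 alternatives this count was 1 instead. Their changes ran from −0.35 (CFAP73) to 0.34 (ODAD2), with a median of 0.05. The 36 that did not enter included the dynein heavy chains DNAH5, DNAH9 and DNAH11, the radial spoke genes RSPH1, RSPH4A and RSPH9, the ruler proteins CCDC39 and CCDC40, and HYDIN of the central apparatus. Of dynein arm assembly factors 10 of 16 entered and 1 was called (10%, against 6.36% of all genes). This was RUVBL1, an ATPase with many further roles, at 0.18 ± 0.05 (SE, limma adjusted p = 0.0243). The RUVBL1 call is lost in 10 of 22 alternatives (limma adjusted p up to 0.138). Among them are the fit without the 4 arrays (0.16, limma adjusted p = 0.0732), and fits without any 1 of 1000 pM replicates 4, 5 and 6 or vehicle replicates 2 and 3 (0.15 to 0.17). CFAP298, at 0.22 and not called with all arrays, was called higher without the 4 arrays (0.17, limma adjusted p = 0.0480).

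Ciliated epithelium markers other than CAPS were mostly not detected. Of 21 on the array 7 entered and CAPS alone was called (14.3%, against 6.36% of all genes, a share that rests on 1 gene). TPPP3, SNTN, C20orf85 and CDHR3 did not enter, PIFO was at −0.30 and TUBB4B, a beta-tubulin of cilia and other microtubules, at −0.09, neither called.

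For intraflagellar transport and the primary cilium 40 of 44 genes entered and 1 was called (2.5%, against 6.36% of all genes). IFT88, a core transport subunit, was called lower at −0.23 ± 0.06 (SE, limma adjusted p = 0.0164). This call is lost in 6 of 22 alternatives, among them leaving out vehicle replicate 4 or 1000 pM replicate 5 (adjusted p up to 0.113 over the 6). Without the 4 arrays that stood apart IFT88 kept its call (−0.25, limma adjusted p = 0.0123). There WDR35, at −0.25 and not called with all arrays, was called lower at −0.30 (limma adjusted p = 0.00497). All 20 centriole genes entered and 1 was called (5%). POC1B, a protein of the centriole wall, was 0.96 ± 0.08 higher (1.95-fold, limma adjusted p = 7.99e-13), with 6 of 6 arrays above the vehicle mean. Its paralogue POC1A was at −0.24 and was not called (−0.20 and called lower without the 4 arrays, limma adjusted p = 0.0326), and PLK4, CEP152 and SASS6, which start centriole duplication, were at 0.10, 0.05 and −0.10, none called.

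**Figure D4:**
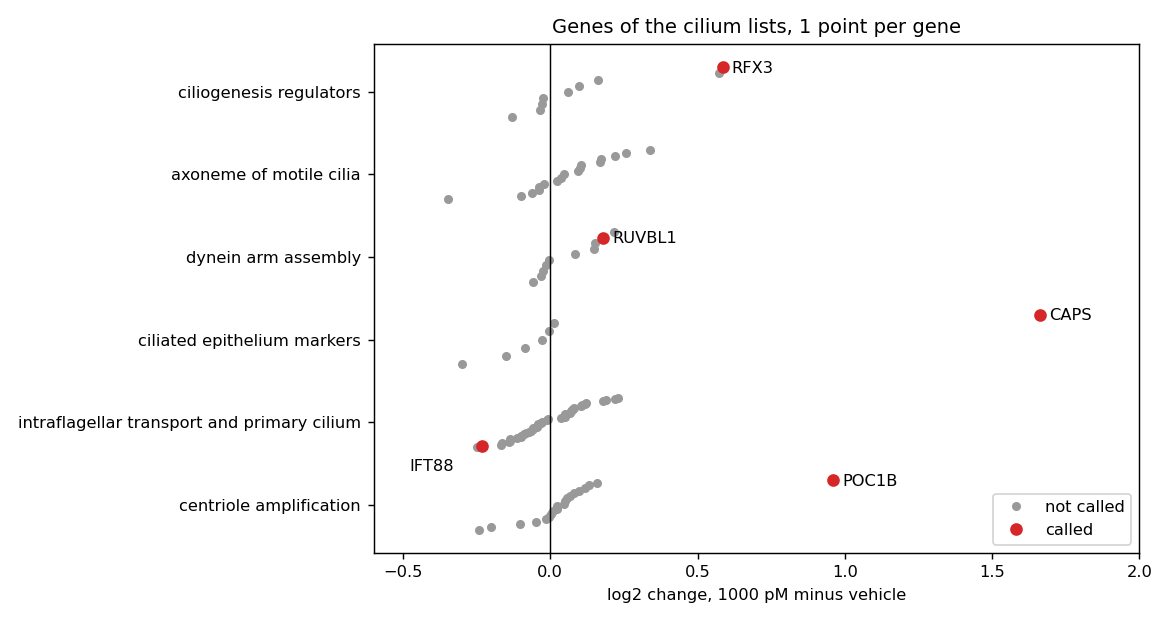
Log2 change at 1000 pM against vehicle (horizontal axis) for each entering gene of the 6 cilium lists (rows), 1 point per gene, spread vertically within a row for visibility. Red points passed the limma threshold and are named, grey points did not. CAPS and POC1B lie farthest to the right, and the axoneme row has no red point.

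Set among proteins with EF-hand domains, CAPS was the one called higher. Of 36 genes on the array 29 entered, 1 was called higher and 5 lower (20.7%, against 6.36% of all entering genes), and the median change was −0.10. These counts include CAPS itself. The 5 lower were S100A10 (−0.54 ± 0.04 SE, limma adjusted p = 2.41e-13), which forms a complex with annexin A2, S100A2 (−0.49 ± 0.12), S100A16 (−0.38 ± 0.09), CIB1 (−0.20 ± 0.05) and S100A6 (−0.15 ± 0.04). CAPS2, a further calcyphosine, was at −0.26 and not called. EFCAB14, at −0.13 and not called with all arrays, was called lower without the 4 arrays that stood apart (−0.19, limma adjusted p = 0.0434). The call of CIB1 is lost in 6 of 22 alternatives, among them leaving out 1000 pM replicate 1 or 3 or vehicle replicate 5 (adjusted p up to 0.134 over the 6). The call of S100A6 is lost in 12 of 22 alternatives (limma adjusted p up to 0.136). Among them are fits without any 1 of 1000 pM replicates 1, 3 and 5 or vehicle replicates 1, 2 and 4 (−0.15 to −0.14). The call of S100A2 is lost without the replicates numbered 5 (−0.36, limma adjusted p = 0.0552).

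By likeness over the 49 arrays, the genes closest to CAPS 226424_PM_at were DHRS3 (Pearson r = 0.980), a retinaldehyde reductase, ALPG (0.977), an alkaline phosphatase near-identical in sequence to ALPP, MLPH (0.974), a melanosome transport protein, and HES2 (0.972), a basic helix-loop-helix repressor. These points share the 8 concentration groups, so the values describe a like response across groups. Of the members, CAPS 231729_PM_s_at stood at 0.959 and 231728_PM_at at 0.917, RFX3 230403_PM_at at 0.693, 243868_PM_at at 0.510 and FOXJ1 at 0.121.

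CAPS lies on chromosome 19 at chr19:5914254-5916211 (GRCh38.p14). On the side of lower coordinates the nearest genes with an entering probe set were NDUFA11, a complex I subunit (chr19:5891229-5903790), and NRTN, the growth factor neurturin (chr19:5805067-5828324). NRTN averaged 9.04 at 1000 pM and 7.37 in vehicle, a change of 1.67 ± 0.17 (SE, limma adjusted p = 2.53e-10), and NDUFA11 changed by 0.39 ± 0.08 (limma adjusted p = 0.00126). On the other side RANBP3, whose annotated span overlaps CAPS by 73 bases, changed by 0.05 ± 0.07 and MLLT1 by −0.14 ± 0.13, neither called. RFX2 lies between these 2, at chr19:5993164-6110500, and was under the floor.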

How the data were processed

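RNA of Ishikawa cells was measured on Affymetrix HT HG-U133 Plus PM arrays, 1 per sample. The values are the deposited log2 expression levels, made by the authors with GCRMA and Partek per the submitters' processing notes, versions not given in the sources used here; GCRMA compresses low signals. Signal over background limits the precision, and array medians were 2.95 to 3.05. The annotation gave a single gene symbol for 40920 of 54715 probe sets, more than 1 for 864 and no symbol for 12931, and 102 control probe sets were left out. No further normalization was applied.

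Group means of 49 arrays were fitted by limma (version 3.58.1, under R 4.3.3, with statmod 1.5.0) with an intensity trend, for each concentration against vehicle and against the next lower, adjusted by Benjamini-Hochberg over 22721 probe sets at 0.05. In gene lists the brightest entering probe set stood for its gene. EC50 values came from curves of slope 1 with intervals from the F distribution. The limma calculation was also run on simulated arrays with known changes, and the curve calculation on simulated curves. Both used independent noise without deviations shared between probe sets or arrays, so they check the calculation and not its fit to these data. Figures used Python 3.11.15 and matplotlib 3.10.9.

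The members, the gene lists and the tests were chosen with earlier results of these data known. All members were named, with list genes called with all arrays on 1 side (up to 4 per list and direction, largest first), the 5 genes most like CAPS (1 of them is not reported here) and the 2 nearest entering genes on either side of it. Other genes were named as examples after their values were seen, among them S100A6, which completes a count of 5. Alternatives changed the filter, variance prior, normalization, array weights, probe set choice and the arrays in the fit, and added the replicate number as a block. Same-numbered arrays deviated together in all 6 pairs for 3 against 1 pM (lowest r 0.131), 10 against 3 pM (0.168) and 100 against 10 pM (0.295), but not in the comparisons with vehicle; the labels name no batch.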

Additional observations from a re-analysis of the deposited data

Results flagged for a closer look

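Of 48 groups of arrays (6 entering probe sets in 8 groups), 4 held an array far from the others by Dixon's criterion, where chance gives about 1 in 20, or 5%. All 4 fell on 2 of the arrays that stood apart in their beta-actin control probe sets. On 0.3 pM replicate 2, CAPS 231728_PM_at read 3.29, where the next array of its group read 4.17, and RFX3 243868_PM_at read 3.05, where the next read 4.40. On 3 pM replicate 6, RFX3 243868_PM_at read 3.71, where the next read 4.75, and FOXJ1 read 4.73, where the next read 4.01. What set these readings apart was not tested.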

How the results depend on the processing

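Alternatives kept the direction of every called change of a member, and the CAPS calls at 10, 100 and 1000 pM and those of RFX3 230403_PM_at held in every alternative run, except CAPS 231728_PM_at at 10 pM with the 2 groups alone (adjusted p = 0.0588). CAPS 226424_PM_at at 1000 pM ranged over 1.61 to 1.73 and RFX3 230403_PM_at over 0.51 to 0.66. CAPS 226424_PM_at at 3 pM was not called with the 2 groups alone (0.42), after quantile normalization (0.40) or without replicates 1, 2, 3 or 6, and kept its call without replicates 4 or 5 (0.35 to 0.50 over these 6 fits). CAPS 231729_PM_s_at at 3 pM lost its call in 4 of 15 alternatives and RFX3 243868_PM_at at 100 pM in 3 of 15. RFX3 243868_PM_at at 1000 pM ranged over 0.63 to 1.14 and lost its call in 10 of 27 alternatives. The difference between CAPS and RFX3 243868_PM_at, 0.72, passed without the 4 arrays of high actin difference (0.91).

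Counts moved as follows. Over 10 alternatives, calls at 1000 pM ranged over 0 to 1 for axoneme genes and 0 to 2 for dynein arm assembly. They ranged over 0 to 3 for intraflagellar transport and the primary cilium. For ciliogenesis regulators and for centriole genes they ranged over 1 to 2. Members called numbered 1, 1, 2 and 2 at 3, 10, 100 and 1000 pM with 1 probe set per gene, fewer by construction. At 3 pM they were 0 with the 2 groups alone, 1 after quantile normalization and 0 to 2 leaving out a replicate number. Cilium genes called lower at 1000 pM, 1 in the report, were 0 without a filter, 2 after quantile normalization, 3 without the 4 arrays, 0 to 2 leaving out a replicate number and 0 to 2 leaving out a single array.

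Over all probe sets the calls at 3, 10, 100 and 1000 pM (19, 114, 1464 and 1118) were 0, 35, 355 and 404 with the 2 groups alone. At 10 pM they were 201 with array weights, 184 without the 4 arrays and 75 without replicates 1 or 5, at 100 pM 799 to 931 without replicates 1, 3, 4 or 5, and at 3 pM 11 without replicates 4. Leaving out single arrays was chosen after seeing the data.

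Signs turned only for changes that were not called. Array weights gave −0.147 and −0.0274 for CAPS 231728_PM_at at 0.1 and 0.3 pM, −0.0184 for RFX3 230403_PM_at at 0.1 pM, −0.0679 and −0.0643 for RFX3 243868_PM_at at 0.3 and 1 pM, and 0.00268 and 0.20 for FOXJ1 at 3 and 1000 pM. Quantile normalization gave −0.00999 for CAPS 226424_PM_at at 0.3 pM. Without the 4 arrays CAPS 231728_PM_at was at −0.16 (0.1 pM), CAPS 231729_PM_s_at at −0.0691 (1 over 0.3 pM), RFX3 230403_PM_at at −0.00601 (0.1 pM), RFX3 243868_PM_at at −0.0879 (1 over 0.3 pM) and 0.0435 (1000 over 100 pM), and FOXJ1 at −0.0992 (0.3 over 0.1 pM) and 0.0284 (1000 pM).

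Leaving out a replicate number moved uncalled changes with vehicle across 0: CAPS 226424_PM_at ranged over −0.15 to 0.00868 (0.1 pM) and −0.0485 to 0.0791 (0.3 pM), CAPS 231728_PM_at −0.21 to 0.11 (0.1 pM) and −0.22 to 0.27 (0.3 pM), and CAPS 231729_PM_s_at −0.0629 to 0.00379 (0.1 pM) and −0.0219 to 0.22 (0.3 pM). The ranges were −0.14 to 0.0701 for RFX3 230403_PM_at (0.3 pM), −0.24 to 0.40 (0.3 pM) and −0.0235 to 0.59 (3 pM) for RFX3 243868_PM_at, and −0.44 to 0.0508 for FOXJ1 at 3 pM. At 1000 pM, over single arrays too, they were −0.31 to 0.19 for FOXJ1, −0.28 to 0.0430 for MLLT1 and −0.0286 to 0.10 for RANBP3.

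With the replicate number as a block, which the values bear out only for the 3 steps between 1 and 100 pM, no member changed its call; CAPS 226424_PM_at stood at 1.66 at 1000 pM. The block turned 3 uncalled changes, CAPS 231728_PM_at at −0.00107 (0.3 over 0.1 pM), CAPS 231729_PM_s_at at −0.0105 (1 over 0.3 pM) and RFX3 230403_PM_at at 0.0365 (0.3 pM), and gave 2 cilium genes called lower. The cause of these shifts was not tested.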
